A study of Mus musculus with 15 samples.

Results

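MHC class I molecules carry peptides from inside the cell to its surface, where CD8 T cells read them. The report follows 9 genes of this pathway in mouse B cells, chosen by symbol from the 21761 genes of the expression table: H2-K1, H2-D1, H2-T23, B2m, Tap1, Tap2, Tapbp, Erap1 and Nlrc5. All 9 had a row, and all 9 passed the filter on low values that left 10866 genes for testing. H2-K1 and H2-D1 encode the classical heavy chains that hold the peptide, and H2-T23 encodes the non-classical heavy chain Qa-1. B2m encodes beta-2 microglobulin, the light chain that every such heavy chain needs to fold and reach the surface. Tap1 and Tap2 form the transporter that moves peptides into the endoplasmic reticulum, Tapbp encodes tapasin, which bridges that transporter and the empty heavy chain, and Erap1 trims the peptides there. Nlrc5 is a transactivator that works at the promoters of class I genes. In B cells these genes are active at rest, and interferon and NF-kappa B signalling are known to raise many of them.

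The RNA came from splenic B cells of female C57BL/6J mice and was selected for poly(A), with 15 libraries in 5 groups of 3. CD138+ cells and GL7+ cells were magnetically enriched from cultures with LPS, IL-2 and IL-5, and each fraction came from a culture with 250 nM GSK-J4 or with its vehicle DMSO. GSK-J4 inhibits the demethylases that remove trimethylation from lysine 27 of histone H3, and RNA was taken on day 3. The groups are thus CD138+ with GSK-J4, CD138+ with DMSO, GL7+ with GSK-J4, GL7+ with DMSO, and unstimulated, untreated naïve CD43- B cells. The labels name mice 1 to 3 as the source of each group, so groups share animals, and no age is given. A CD138+ GSK-J4 column carries the number 4 and could be tied to its group and to no mouse. It is called replicate 4 here. The cultured groups were kept in LPS and cytokines throughout, so no comparison with naïve cells separates culture from the fraction. Enrichment was by beads, and its purity is not stated.

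Libraries held 6175103 to 13189598 reads in genes, apart from naïve replicate 2 with 1318001. The lowest read count of a member was 156, for Erap1 in that library, and no other library had a member under 760 reads. CD138 itself (Sdc1) averaged 40.1 and 32.6 RPKM (reads per kilobase of gene, scaled to the library total) in CD138+ cells with GSK-J4 and with DMSO, against 2.88 and 1.37 RPKM in GL7+ cells with GSK-J4 and with DMSO. A list of 6 B cell markers summed to 820 to 865 RPKM in CD138+ GSK-J4, 1040 to 1100 in CD138+ DMSO, 1290 to 1470 in GL7+ GSK-J4, 1690 to 1790 in GL7+ DMSO and 3380 to 4020 in naïve libraries. A list of 5 plasma cell markers ran the other way, with 3110 to 3290, 2850 to 3060, 773 to 868, 598 to 659 and 272 to 310 RPKM in the same order of groups. Of the 10 listed myeloid markers, 9 had a value above 0 in naïve libraries and summed to 70.1 to 107 RPKM there, led by Lyz2 at 61.7 RPKM, against 5.31 to 14.1 RPKM over the cultured libraries. In such bulk samples, a change in the share of cells of a type and a change in RNA per cell cannot be told apart.

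The promoters show what the classical heavy chains have in common in their sequence. RefSeq promoter windows, 250 bases before to 50 after a start on the GRCm38.p6 build, were found for 7 of the 9 genes, matched by gene identifier. The motifs searched on both strands were GGGANTNCC (a form of the kappa B site known from enhancer A of class I genes), AANNGAAA (a core bound by interferon regulatory factors), TGACG (a half-site bound by CREB and ATF proteins) and CCAAT (the core of the Y box bound by NF-Y). They were chosen with class I promoters in view, the kappa B letters were shortened after these windows were seen, and a share of promoters depends on how many letters are fixed. The 4 windows shown are those of the heavy and light chains whose levels the results turn on, read 5′ to 3′ on the gene's strand, with matches in capitals. H2-K1 lies at chr17:34000298-34000597 on the minus strand, H2-D1 at chr17:35262844-35263143 on the plus strand, B2m at chr2:122147437-122147736 on the plus strand and H2-T23 at chr17:36032652-36032951 on the minus strand.
H2-K1: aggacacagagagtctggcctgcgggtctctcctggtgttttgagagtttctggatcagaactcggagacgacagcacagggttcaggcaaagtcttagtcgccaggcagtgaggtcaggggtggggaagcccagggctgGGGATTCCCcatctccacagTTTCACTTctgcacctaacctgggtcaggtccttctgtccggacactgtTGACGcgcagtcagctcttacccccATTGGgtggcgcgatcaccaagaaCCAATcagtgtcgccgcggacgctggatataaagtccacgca
H2-D1: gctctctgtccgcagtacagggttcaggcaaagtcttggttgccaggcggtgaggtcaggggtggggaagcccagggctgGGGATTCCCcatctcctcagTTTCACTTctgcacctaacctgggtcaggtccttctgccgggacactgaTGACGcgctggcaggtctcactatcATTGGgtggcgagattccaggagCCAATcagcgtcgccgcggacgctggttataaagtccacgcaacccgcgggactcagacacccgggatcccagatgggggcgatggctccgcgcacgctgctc
B2m: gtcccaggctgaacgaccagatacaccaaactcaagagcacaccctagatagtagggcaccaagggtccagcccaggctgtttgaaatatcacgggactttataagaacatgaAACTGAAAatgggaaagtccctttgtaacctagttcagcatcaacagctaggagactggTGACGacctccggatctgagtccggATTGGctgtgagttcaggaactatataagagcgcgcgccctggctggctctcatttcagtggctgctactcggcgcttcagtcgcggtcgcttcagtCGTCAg
H2-T23: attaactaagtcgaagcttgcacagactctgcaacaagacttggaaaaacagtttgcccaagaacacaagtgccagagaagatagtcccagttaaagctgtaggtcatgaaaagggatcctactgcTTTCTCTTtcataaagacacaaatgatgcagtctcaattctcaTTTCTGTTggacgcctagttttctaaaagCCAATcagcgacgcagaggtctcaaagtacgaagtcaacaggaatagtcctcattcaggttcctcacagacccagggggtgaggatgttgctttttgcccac

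Both H2-K1 and H2-D1 held GGGANTNCC, on both strands at the same place, and 1067 of 27025 promoters of this length did (3.95%). Each also had the other 3 motifs, and the promoters with all 4 numbered 21 among 27025. H2-K1 and H2-D1 shared a run of 47 identical bases that includes the kappa B letters. The B2m window had AANNGAAA, TGACG and CCAAT, and the H2-T23 window had AANNGAAA at 2 places and CCAAT once. Those 3 motifs were common: AANNGAAA was in 24.2% of promoters, TGACG in 21.0% and CCAAT in 37.9%. Among the 7 windows, AANNGAAA was in 5, TGACG in 4 and CCAAT in 6. A match describes letters and is no evidence of binding, and a second start is listed for H2-K1, whose window may therefore sit differently from that of H2-D1.

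The levels of the classical heavy chains were lowest in the GL7+ cells. H2-K1 stood at 397, 381 and 400 RPKM in CD138+ GSK-J4 libraries and at 366, 345 and 349 RPKM in CD138+ DMSO libraries. It stood at 244, 223 and 221 RPKM in GL7+ GSK-J4, at 231, 217 and 204 RPKM in GL7+ DMSO, and at 392, 374 and 413 RPKM in naïve libraries. The naïve and CD138+ GSK-J4 libraries overlapped, as did the GL7+ groups, and CD138+ DMSO lay between them without overlap. H2-D1 stood at 552, 553 and 593 RPKM in CD138+ GSK-J4 libraries and at 542, 513 and 510 RPKM in CD138+ DMSO libraries. Its values were 379, 358 and 358 RPKM in GL7+ GSK-J4, 356, 337 and 312 RPKM in GL7+ DMSO, and 615, 602 and 646 RPKM in naïve libraries. No neighbouring groups of H2-D1 overlapped, in the order naïve, CD138+ GSK-J4, CD138+ DMSO, GL7+ GSK-J4 and GL7+ DMSO. Of all tested genes, 14.4% had GSK-J4 above DMSO without overlap in CD138+ cells and 19.1% in GL7+ cells. For groups set against naïve cells no such share is given. Calls there were common, with 41.3% of tested genes higher and 40.3% lower in GL7+ DMSO cells.

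H2-T23, whose product Qa-1 presents leader peptides of other class I molecules to the inhibitory receptor NKG2A on NK and T cells, was highest in naïve cells. It had 79.6, 80.9 and 83.6 RPKM in CD138+ GSK-J4 libraries, against 84.6, 89.1 and 83.4 RPKM in CD138+ DMSO libraries. In GL7+ cells it had 60.7, 52.3 and 56.3 RPKM with GSK-J4, against 72.1, 72.1 and 66.3 RPKM with DMSO. Naïve libraries had 118, 113 and 124 RPKM, above all cultured libraries. The GL7+ GSK-J4 libraries were the lowest of the 15, and the CD138+ groups overlapped.

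B2m was highest in CD138+ cells with GSK-J4, at 658, 550 and 596 RPKM, against 464, 416 and 420 RPKM in CD138+ cells with DMSO. GL7+ cells had 351, 321 and 321 RPKM with GSK-J4, against 330, 311 and 303 RPKM with DMSO, and these groups overlapped. Naïve libraries had 391, 577 and 430 RPKM and overlapped both CD138+ groups, with 2 of the 3 CD138+ GSK-J4 libraries above every naïve library. The high naïve value belongs to replicate 2, the shallowest library, and the part of depth in it was not tested. The counting error of B2m there was 2.29% of its value. The table gives B2m a length of 2502 bases, while the merged exons of B2m in GENCODE M21 span 860 bases, so its RPKM against other genes depends on the annotation used. The length cancels in ratios between groups, but the annotation also sets which reads are counted, and no recount was made.

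Of the loading genes, Tapbp varied most. Tapbp had 192, 199 and 210 RPKM in CD138+ GSK-J4 libraries and 173 RPKM in each of the 3 CD138+ DMSO libraries. GL7+ cells had 124, 124 and 116 RPKM with GSK-J4 and 125, 125 and 120 RPKM with DMSO, and naïve cells had 111, 111 and 116 RPKM. The CD138+ groups stood above the rest and apart from each other. Tap1 and Tap2, which pair up as the transporter, were nearly level over the 15 libraries, with a highest group mean 1.24 and 1.13 times the lowest. Tap1 had 46.3, 46.2 and 48.8 RPKM in CD138+ GSK-J4 libraries, above all others, which ran from 36 RPKM in a naïve library to 43.8 RPKM in a GL7+ DMSO library. Tap2 ran from 51.7 RPKM in a GL7+ GSK-J4 library to 65.2 RPKM in a naïve library, and every pair of neighbouring groups overlapped.

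Erap1 had 24, 21.8 and 24.2 RPKM in naïve libraries, below the 27.9 to 32.4 RPKM of the 12 cultured libraries. Nlrc5 had the lowest mean RPKM of the 9 genes in each group, with 20.6, 18 and 18.9 RPKM in CD138+ GSK-J4, 19.4, 15.6 and 15.8 in CD138+ DMSO, 23.4, 19.8 and 20.4 in GL7+ GSK-J4, 21.2, 15.9 and 17.2 in GL7+ DMSO and 24.4, 21.8 and 23 in naïve libraries. Its neighbouring groups overlapped, and the library of mouse 1 was the highest in each of the 5 groups. Some members share exon bases with another gene in GENCODE M21: Tap1 with Psmb9, Tap2 with 2 non-coding genes, Tapbp with Zbtb22 and a non-coding gene, Erap1 with Cast and Nlrc5 with a non-coding gene. H2-K1, H2-D1, H2-T23 and B2m share none. The strand setting is not given in the sources used here, and reads of near-identical heavy chain genes can be split between copies, so heavy chain levels are uncertain to that extent.

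**Figure D1:**
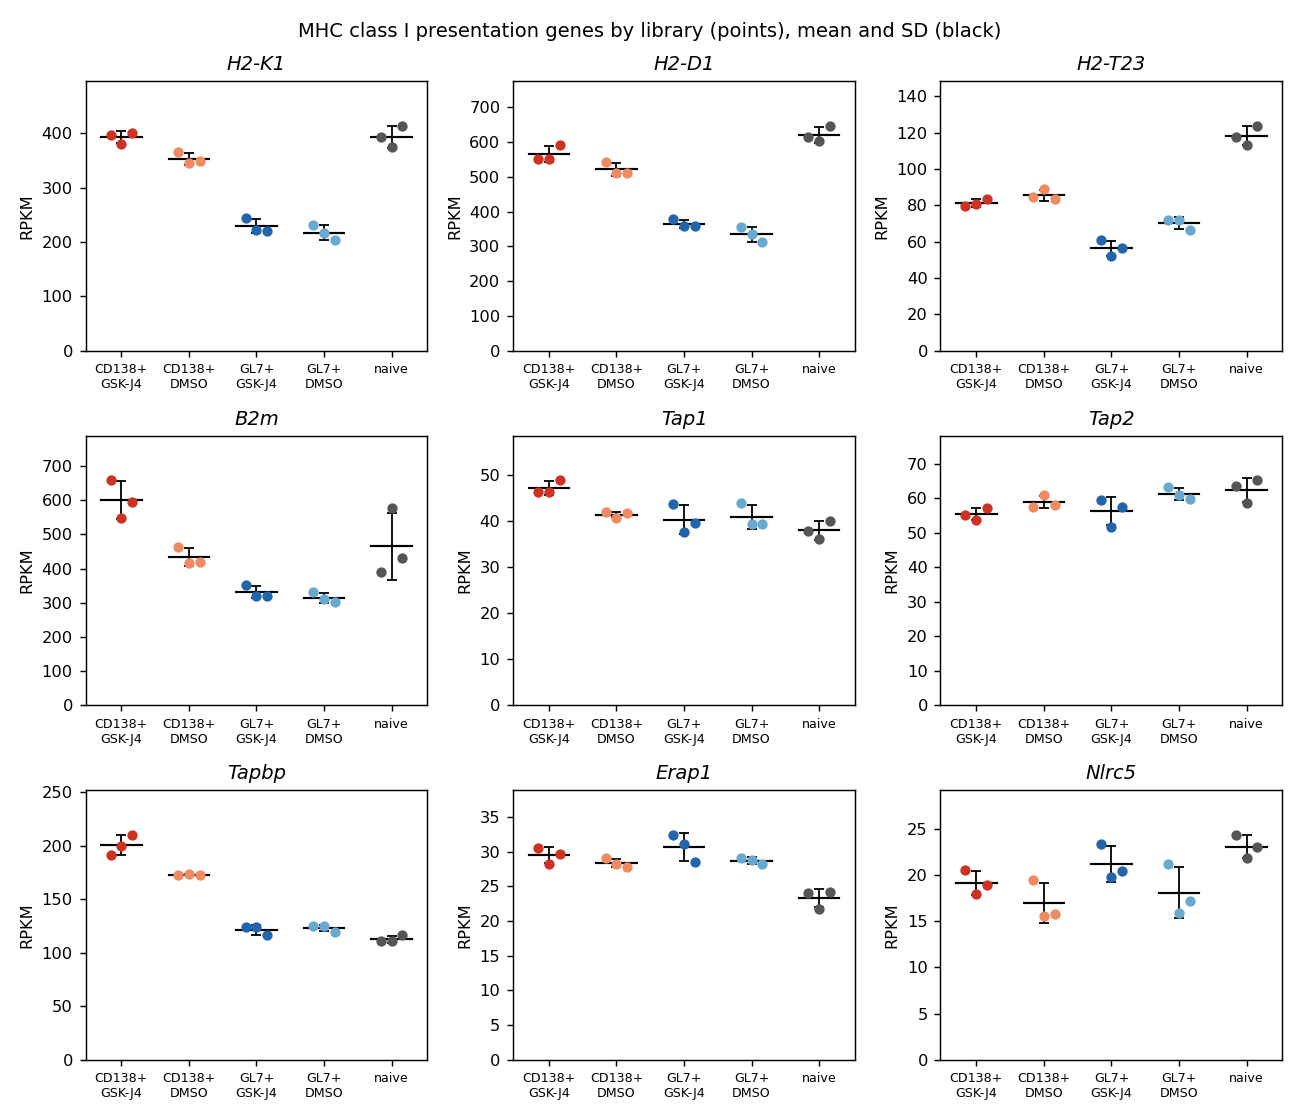
RPKM (linear axis from 0) of the 9 genes in the 15 libraries, by group; points are libraries, the horizontal black line is the group mean and the vertical bar the SD (n = 3). H2-K1 and H2-D1 sit lowest in both GL7+ groups, the means of B2m and Tapbp are highest in CD138+ cells with GSK-J4, and Tap2 is nearly level.

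The effect of GSK-J4 on class I genes in CD138+ cells was tested first. B2m and Tapbp rose, and the other 7 genes did not pass the test. B2m averaged 601 ± 54.4 RPKM with GSK-J4 and 434 ± 26.8 RPKM with DMSO (SD, n = 3 each), a 1.39-fold difference. Tapbp averaged 200 ± 9.24 RPKM with GSK-J4 and 173 ± 0.349 RPKM with DMSO, a 1.16-fold difference. The fits were on log2(RPKM + 1) with limma over all 10866 genes, with Benjamini-Hochberg adjustment. The log2 change was 0.47 for B2m (SE 0.112, 95% interval 0.23 to 0.71, adjusted p = 0.014) and 0.21 for Tapbp (SE 0.044, 95% interval 0.12 to 0.31, adjusted p = 0.0068).

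The 2 calls among 9 genes compare with 4.61% of all tested genes higher and 8.61% lower in this comparison. The median log2 change of the 9 was 0.15, and that of all tested genes was -0.03. The groups did not overlap, with GSK-J4 above DMSO, for 5 of the 9 (B2m, Tapbp, H2-K1, H2-D1 and Tap1), against 14.4% of all tested genes. They did not overlap in the other direction for Tap2, against 22.4% of all tested genes. On the log2 scale H2-K1 differed by 0.15 (adjusted p = 0.10), H2-D1 by 0.12 (adjusted p = 0.20) and Tap1 by 0.18 (adjusted p = 0.062) in the limma fit. Tap1 passed without GL7+ GSK-J4 replicate 1 (adjusted p = 0.045) or without naïve replicate 2 (adjusted p = 0.036). Nlrc5 differed by 0.17, Erap1 by 0.05, H2-T23 by -0.07 and Tap2 by -0.08 on the log2 scale, with adjusted p of 0.31, 0.59, 0.45 and 0.37.

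With mouse as a block, which sets the library of no known mouse aside, both calls were lost: B2m differed by 0.44 on the log2 scale (adjusted p = 0.077) and Tapbp by 0.17 (adjusted p = 0.062) in limma, and 927 genes were called in place of 1437. Without that library and with no block, both passed, at adjusted p of 0.038 for B2m and 0.032 for Tapbp. The call of B2m was also lost without CD138+ GSK-J4 replicate 1 (log2 change 0.40, adjusted p = 0.058), without CD138+ DMSO replicate 2 (0.44, adjusted p = 0.056) and without CD138+ DMSO replicate 3 (0.45, adjusted p = 0.052). All 15 libraries set the spread in the fit, so naïve libraries bear on this p-value. Without naïve replicate 2, where B2m was high, its adjusted p was 0.00045 at the same log2 change of 0.47. Within mouse 1 the fold of GSK-J4 over DMSO was 1.42 for B2m and 1.11 for Tapbp, and within mouse 2 it was 1.32 and 1.15. The plasma cell marker sums were also higher and the B cell marker sums lower with GSK-J4 in these libraries, and their part in the changes was not tested.

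In GL7+ cells a single member changed. H2-T23 fell with GSK-J4, to 56.4 ± 4.24 RPKM, against 70.2 ± 3.33 RPKM with DMSO (SD, n = 3 each), a ratio of 0.804. Its log2 change was -0.31 (SE 0.057, 95% interval -0.43 to -0.19, adjusted p = 0.0033 in limma), and it was lower in 3 of 3 mice, with ratios of 0.843, 0.725 and 0.849. The call held in all 22 alternatives, with adjusted p of 0.00043 to 0.02. In GL7+ libraries too, GSK-J4 went with higher plasma cell marker sums (773 to 868 RPKM, against 598 to 659 with DMSO). The B cell marker sums were lower (1290 to 1470 RPKM, against 1690 to 1790). Their part in the fall of H2-T23 was not tested.

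The count of 0 higher and 1 lower among 9 genes compares with 5.81% and 7.71% of all tested genes. At an unadjusted p under 0.05, H2-D1 (log2 change 0.12, 95% interval 0 to 0.25) and Tap2 (-0.12, 95% interval -0.24 to 0) were also apart, both with an adjusted p of 0.17. Their groups did not overlap either, with H2-D1 higher against 19.1% of all tested genes and with Tap2 and H2-T23 lower against 21.6%. B2m differed by 0.07 on the log2 scale (95% interval -0.17 to 0.31) and Tapbp by -0.02 (95% interval -0.12 to 0.07). The CD138+ interval of B2m, 0.23 to 0.71, overlapped its GL7+ interval, and that of Tapbp, 0.12 to 0.31, did not. In the main fit neither gene passed a direct test of the difference between the fractions. Nlrc5 differed by 0.22 (adjusted p = 0.18), and with mouse as a block it passed (log2 change 0.22, adjusted p = 0.025). H2-K1, Erap1 and Tap1 differed by 0.08, 0.09 and -0.02. The median of the 9 was 0.07 on the log2 scale, and that of all tested genes was -0.01.

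The difference between the effects in the fractions was tested directly. No member passed, against 0.966% of all tested genes. At an unadjusted p under 0.05 the effect in CD138+ cells exceeded that in GL7+ cells for B2m (by 0.40 on the log2 scale, adjusted p = 0.28), H2-T23 (0.24, adjusted p = 0.19), Tapbp (0.23, adjusted p = 0.10) and Tap1 (0.20, adjusted p = 0.31) in limma. The other 5 genes differed by -0.05 to 0.08. In a fit of the 4 cultured groups alone, B2m (adjusted p = 0.046) and Tapbp (adjusted p = 0.039) passed, and without naïve replicate 2 B2m passed (adjusted p = 0.042).

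**Figure D2:**
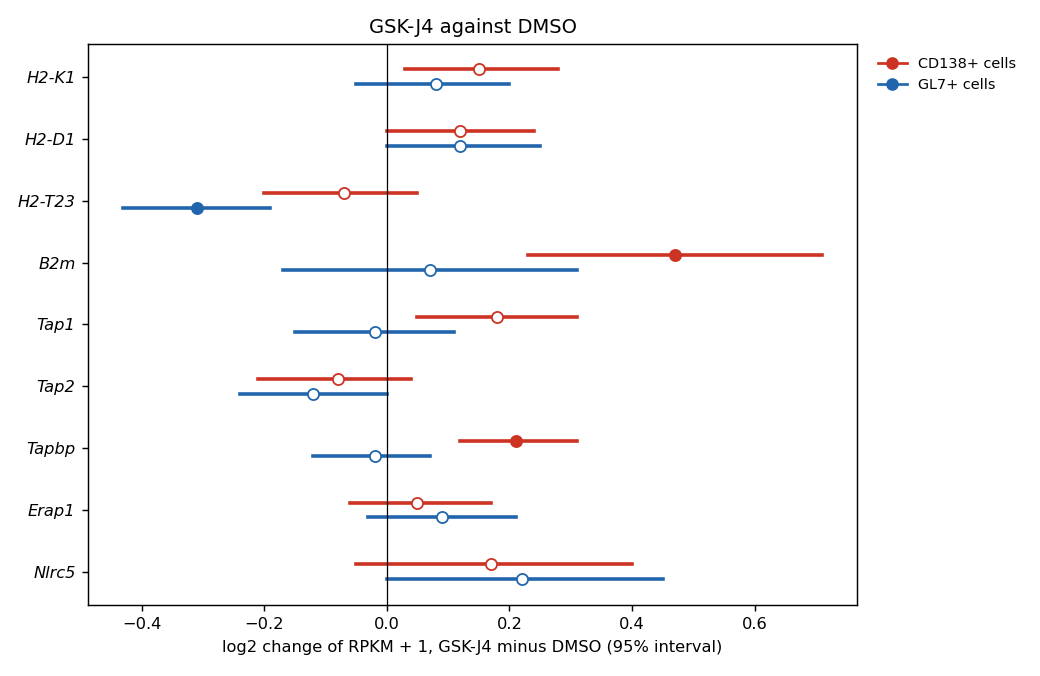
Log2 change of RPKM + 1 with GSK-J4 against DMSO for the 9 genes, in CD138+ cells (red, upper) and GL7+ cells (blue, lower); lines are 95% intervals from limma and filled points have an adjusted p under 0.05. The filled points are B2m (0.47) and Tapbp (0.21) in CD138+ cells and H2-T23 (-0.31) in GL7+ cells.

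CD138+ cells had more heavy chain, light chain and tapasin RNA than GL7+ cells. With DMSO, 5 genes were higher in CD138+ cells and 4 did not pass the test, against 21.8% of all tested genes higher and 36.9% lower. H2-K1 averaged 353 ± 11 RPKM in CD138+ and 217 ± 13.8 RPKM in GL7+ cells (1.63-fold), and H2-D1 averaged 522 ± 17.9 RPKM in CD138+ and 335 ± 22.2 RPKM in GL7+ cells (1.56-fold; SD, n = 3 each). Tapbp was 1.41-fold, B2m 1.38-fold and H2-T23 1.22-fold higher. The log2 changes were 0.70 (SE 0.058, adjusted p = 1.2e-07 in limma) for H2-K1, 0.64 (SE 0.057, adjusted p = 2.4e-07) for H2-D1 and 0.49 (SE 0.044, adjusted p = 3.1e-07) for Tapbp. B2m had 0.46 (SE 0.112, adjusted p = 0.0026) and H2-T23 0.29 (SE 0.057, adjusted p = 0.00059).

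The same 5 genes were those whose DMSO groups did not overlap, all higher in CD138+ cells, against 26.5% of all tested genes. Tap1, Tap2, Erap1 and Nlrc5 differed by 0.02, -0.06, -0.02 and -0.09 on the log2 scale. The 95% interval for Tap1 was -0.11 to 0.15 and that for Tap2 was -0.18 to 0.06. The median of the 9 genes was 0.29, while that of all tested genes was -0.10.

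With GSK-J4 in both fractions, 6 genes were higher in CD138+ than in GL7+ cells, against 24% of all tested genes higher and 39% lower. B2m was 1.82-fold higher (log2 change 0.86, adjusted p = 1.1e-05 in limma), H2-K1 1.71-fold, Tapbp 1.65-fold, H2-D1 1.55-fold and H2-T23 1.44-fold. Tap1 joined them at 1.17-fold (log2 change 0.22, adjusted p = 0.0049), with 47.1 ± 1.46 RPKM in CD138+ and 40.3 ± 3.11 RPKM in GL7+ cells (SD, n = 3 each). The calls in both comparisons of the fractions held in the 22 alternatives each. The plasma cell marker sum was higher and the B cell marker sum lower in CD138+ libraries, and their part in these differences was not tested.

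Against naïve cells, the cultured fractions differed from each other in how far the heavy chains were down. In GL7+ DMSO cells H2-D1 averaged 335 ± 22.2 RPKM, against 621 ± 22.6 RPKM in naïve cells (ratio 0.539), and H2-K1 averaged 217 ± 13.8 RPKM, against 393 ± 19.6 RPKM (ratio 0.553; SD, n = 3 each). H2-T23 fell to 70.2 ± 3.33 RPKM, against 118 ± 5.16 RPKM in naïve cells. On the log2 scale the differences were -0.89 for H2-D1 (adjusted p = 1.3e-09 in limma), -0.85 for H2-K1 (2.8e-09), -0.75 for H2-T23 (1.1e-08), -0.55 for B2m (0.00038) and -0.34 for Nlrc5 (0.0074). Without naïve replicate 2, B2m was lower by a log2 change of -0.38 (adjusted p = 0.00036). Erap1 rose by 0.29 (adjusted p = 0.00019), to 28.7 ± 0.446 RPKM in GL7+ DMSO cells, against 23.3 ± 1.34 RPKM in naïve cells.

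Tapbp was higher by 0.13 (adjusted p = 0.015) in GL7+ DMSO than in naïve cells. That direction turned under quantile normalization (-0.24, adjusted p = 0.00029), and the call was lost without GL7+ DMSO replicate 1 (0.12, adjusted p = 0.052) and in the fit of the 2 groups alone (0.13, adjusted p = 0.052). The 2 higher and 5 lower genes compare with 41.3% and 40.3% of all tested genes. The median of the 9 was -0.34, and that of all tested genes was 0.01.

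CD138+ DMSO cells were closer to naïve cells in the classical heavy chains. H2-D1 differed by -0.25 on the log2 scale (adjusted p = 0.00081 in limma), with 522 ± 17.9 RPKM in CD138+ DMSO and 621 ± 22.6 RPKM in naïve cells (SD, n = 3 each). H2-K1 differed by -0.15 (adjusted p = 0.024), a call that was lost without CD138+ DMSO replicate 2 (-0.14, adjusted p = 0.076), without CD138+ DMSO replicate 3 (-0.15, adjusted p = 0.064) or without naïve replicate 3 (-0.12, adjusted p = 0.097), and in the fit of the 2 groups alone (-0.15, adjusted p = 0.071). H2-T23 fell by 0.46 on the log2 scale (adjusted p = 2.4e-06) and Nlrc5 by 0.43 (adjusted p = 0.0015). Tapbp rose by 0.62 (1.54-fold, adjusted p = 4.7e-09) and Erap1 by 0.27 (1.22-fold, adjusted p = 0.00032). The calls of Tapbp and H2-D1 held in all 22 alternatives, but their sizes depended on the processing. The log2 change ran from 0.25 to 0.69 for Tapbp and from -0.58 to -0.17 for H2-D1.

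B2m did not pass the test (log2 change -0.09, adjusted p = 0.49), and it had a log2 change of 0.08 without naïve replicate 2. Tap1 (0.12, adjusted p = 0.074) passed without naïve replicate 3 (0.16, adjusted p = 0.037). The 2 higher and 4 lower genes compare with 39.9% and 43.5% of all tested genes, and the median of the 9 was -0.09, with -0.05 over all tested genes. Both comparisons use the same 3 naïve libraries, which also had more myeloid, erythroid and T cell marker RNA than the cultured ones. The listed T cell markers summed to 24.5 to 30.1 RPKM in naïve libraries, led by Lck at 15.7 RPKM, against 4.16 to 9.1 RPKM in cultured ones. Cd28 went the other way, with 0.388 RPKM in naïve, 7.56 RPKM in CD138+ DMSO and 0.853 RPKM in GL7+ DMSO libraries. The listed dendritic cell markers summed to 27.4 to 30.6 RPKM in naïve libraries and to 31.3 to 33.1 RPKM in GL7+ DMSO libraries. In CD138+ DMSO libraries they summed to 9.76 to 11.1 RPKM. Among them, Itgax averaged 14.1 RPKM in naïve libraries and at most 0.0827 RPKM in a cultured group. Flt3 went the other way against GL7+ DMSO, with 6.35 RPKM in naïve and 31.6 RPKM in GL7+ DMSO libraries. The erythroid and platelet markers summed to 70.1 to 85.9 RPKM in naïve libraries, led by Hbb-b1, against 0.766 to 9.61 RPKM in cultured ones. The part of such RNA in these differences was not tested.

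**Figure D3:**
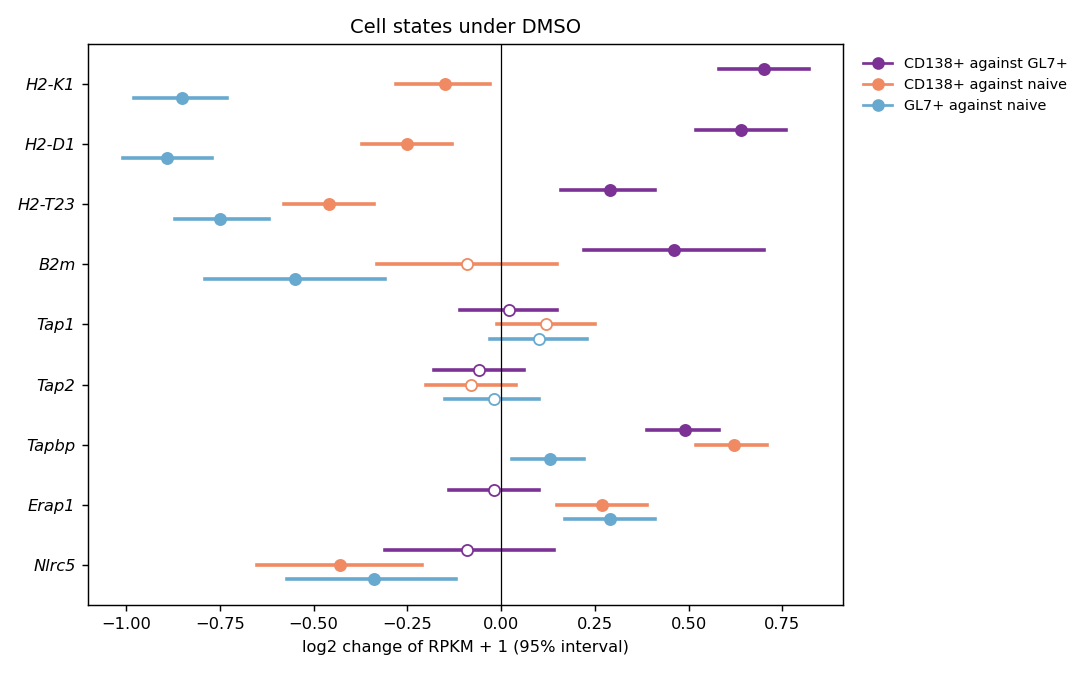
Log2 change of RPKM + 1 between cell states with DMSO for the 9 genes: CD138+ against GL7+ (purple), CD138+ against naïve (orange) and GL7+ against naïve (blue); lines are 95% intervals from limma and filled points have an adjusted p under 0.05. H2-K1 and H2-D1 lie at 0.70 and 0.64 between the fractions and at -0.85 and -0.89 between GL7+ and naïve cells.

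The balance between chains was described per library, without a test. The sum of H2-K1 and H2-D1 RPKM was 1.44, 1.7 and 1.67 times that of B2m in CD138+ GSK-J4 libraries, against 1.96, 2.06 and 2.04 times in CD138+ DMSO libraries. These groups did not overlap. In GL7+ cells the ratio was 1.77, 1.81 and 1.8 with GSK-J4, against 1.78, 1.78 and 1.7 with DMSO, and those groups overlapped. Naïve libraries had 2.58, 1.69 and 2.46, the low value again in replicate 2. H2-T23 amounted to 20.7 ± 0.621% of H2-K1 in CD138+ GSK-J4, 24.3 ± 1.39% in CD138+ DMSO, 24.6 ± 1.03% in GL7+ GSK-J4, 32.3 ± 1.06% in GL7+ DMSO and 30.1 ± 0.2% in naïve libraries (SD, n = 3 each). The GSK-J4 libraries were below the DMSO libraries in each fraction, without overlap.

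Tapbp stood at 4.26 ± 0.101 times Tap1 in CD138+ GSK-J4 and 4.18 ± 0.0717 times in CD138+ DMSO libraries, against 3.02 ± 0.239 and 3.02 ± 0.158 times in GL7+ GSK-J4 and GL7+ DMSO libraries and 2.97 ± 0.0877 times in naïve ones. The classical heavy chains H2-K1 and H2-D1 kept closer step with each other. H2-K1 was 0.695 times H2-D1 in CD138+ GSK-J4, 0.677 in CD138+ DMSO, 0.628 in GL7+ GSK-J4, 0.648 in GL7+ DMSO and 0.633 in naïve libraries. The 9 genes together took 0.564% of the reads in CD138+ GSK-J4 and 0.485% in CD138+ DMSO, against 0.365% in GL7+ GSK-J4 and 0.351% in GL7+ DMSO, and 0.517% in naïve libraries.

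**Figure D4:**
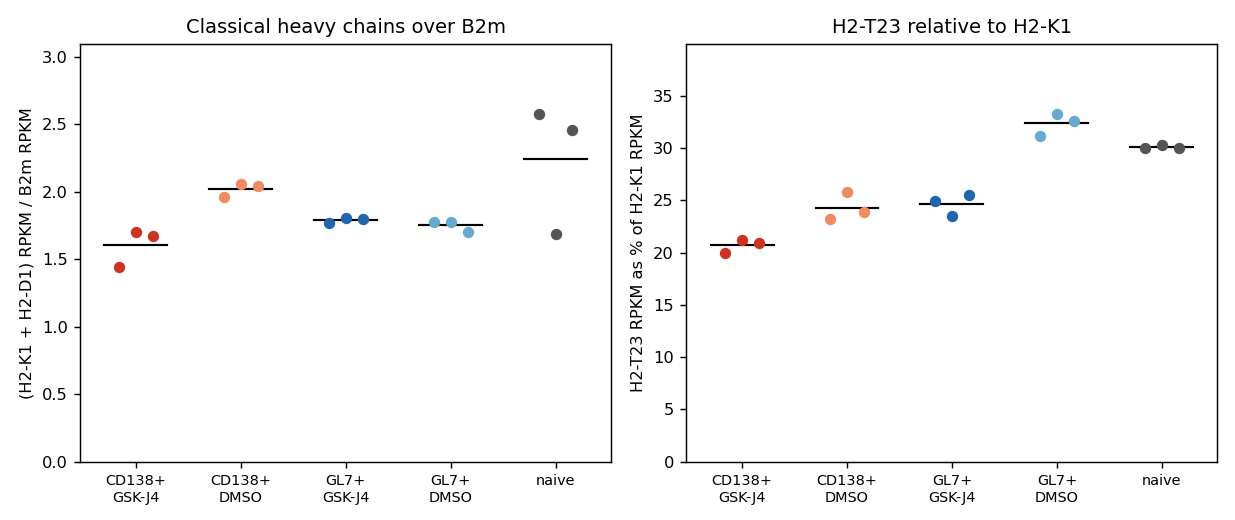
Ratios per library by group: left, the summed RPKM of H2-K1 and H2-D1 over that of B2m; right, H2-T23 RPKM as a percentage of H2-K1 RPKM; points are libraries and lines are group means (n = 3), on linear axes from 0. The left ratio is 1.6 in CD138+ cells with GSK-J4 and 2.02 with DMSO, and the right ratio is 24.6% in GL7+ cells with GSK-J4 and 32.3% with DMSO.

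Some other class I heavy chains also differed between the fractions. Of 25 listed genes, mostly non-classical heavy chains, 21 had a row and 15 were tested. With DMSO, 5 of the 15 were higher in CD138+ than in GL7+ cells and 0 lower, against 21.8% and 36.9% of all tested genes, and the median log2 change was 0.1. H2-T24 averaged 38.8 ± 1.38 RPKM in CD138+ and 13.1 ± 1.16 RPKM in GL7+ cells (log2 change 1.5, adjusted p = 1.2e-09 in limma), and H2-Q7, a Qa-2 gene, averaged 115 ± 8.15 and 52.8 ± 6.4 RPKM (1.11, adjusted p = 6e-06; SD, n = 3 each). Cd1d1, which presents lipids, had a log2 change of 0.91, and H2-M3, which presents formylated peptides, had 0.38. With GSK-J4, H2-T24 rose in CD138+ cells by 0.27 (adjusted p = 0.035) and H2-T22 in GL7+ cells by 0.29 (adjusted p = 0.04), and 0 of the 15 fell in either fraction. That is 1 of 15 higher in each, against 4.61% of all tested genes in CD138+ cells and 5.81% in GL7+ cells. Against naïve cells, 14 of 15 were lower in GL7+ DMSO cells (40.3% of all tested genes) and 11 of 15 in CD138+ DMSO cells (43.5%), with median log2 changes of -1.36 and -0.86. H2-M2, Hfe and Fcgrt averaged 3.6, 4.28 and 14.2 RPKM in naïve cells, against 0, 0.178 and 0.142 RPKM in GL7+ DMSO cells. In CD138+ DMSO cells they averaged 0, 0.0367 and 0.0757 RPKM. Genes that passed the filter through naïve libraries were bound to be lower in culture and had little room to fall with GSK-J4. Naïve libraries also had more myeloid marker RNA, and its part was not tested.

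Of 16 genes that supply or load peptides, 1 rose with GSK-J4 in the CD138+ fraction (against 4.61% of all tested genes) and 5 rose in GL7+ cells (5.81%), and 0 fell in either. Calr, the chaperone calreticulin of the loading complex, rose in both, by 0.30 in CD138+ cells (adjusted p = 0.0028 in limma) and by 0.32 in GL7+ cells (adjusted p = 0.0021). In GL7+ cells Pdia3, the disulfide isomerase bound to tapasin, rose by 0.29, Tpp2, a cytosolic peptidase, by 0.26, and Psme3, a proteasome activator, by 0.22. With DMSO, 7 of the 16 were higher and 5 lower in CD138+ than in GL7+ cells, against 21.8% and 36.9% of all tested genes. Calr averaged 1420 ± 43.8 RPKM in CD138+ and 682 ± 12.3 RPKM in GL7+ cells, and Tapbpl, the tapasin-related peptide editor TAPBPR, averaged 45.8 ± 0.832 and 19 ± 3.59 RPKM (SD, n = 3 each). Against naïve cells, 12 were higher and 2 lower in GL7+ DMSO (41.3% and 40.3% of all tested genes), and 13 were higher and 2 lower in CD138+ DMSO (39.9% and 43.5%).

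Of 20 listed regulators of class I transcription, 1 rose and 4 fell with GSK-J4 in CD138+ cells, against 4.61% and 8.61% of all tested genes. In GL7+ cells 1 rose and 3 fell, against 5.81% and 7.71%. Ciita, the class II transactivator related to Nlrc5, fell in both, by 1.06 on the log2 scale in CD138+ cells (adjusted p = 4.8e-05 in limma) and by 0.47 in GL7+ cells (adjusted p = 0.014). Irf8 fell by 0.53 in CD138+ cells and by 0.31 in GL7+ cells. Creb1 fell by 0.53 in CD138+ cells (adjusted p = 0.0036) and did not pass in GL7+ cells (log2 change -0.20, adjusted p = 0.21). Irf2, named after its values were seen, rose by 0.18 in CD138+ cells (adjusted p = 0.014) and fell by 0.15 in GL7+ cells (adjusted p = 0.032). Nfkb1, which encodes the p50 subunit that binds kappa B sites, fell by 0.36 in CD138+ cells (adjusted p = 0.00039), to 42.9 ± 1.13 RPKM with GSK-J4, against 55.3 ± 2.58 RPKM with DMSO (SD, n = 3 each). With DMSO, Nfkb1 averaged 55.3 ± 2.58 RPKM in CD138+ and 110 ± 0.407 RPKM in GL7+ cells. Its part in the levels of H2-K1 and H2-D1 was not tested. Between the fractions with DMSO, 2 of the 20 were higher and 11 lower in CD138+ cells (21.8% and 36.9% of all tested genes). Prdm1, the plasma cell repressor Blimp-1, was among the higher ones (log2 change 1.75). Ciita (-1.93), Irf8 (-1.38), Nfkb1 (-0.98) and Creb1 (-0.87) were among the lower ones.

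Of 21 tested interferon response genes, 8 rose and 2 fell with GSK-J4 in CD138+ cells, against 4.61% and 8.61% of all tested genes. In GL7+ cells 4 rose and 1 fell, against 5.81% and 7.71%. Zbp1, a nucleic acid sensor, rose by 0.52 in CD138+ cells (adjusted p = 0.002 in limma) and by 0.64 in GL7+ cells (adjusted p = 0.00065). Oas1a rose by 0.87 and 0.67, and Eif2ak2, which encodes the kinase PKR, by 0.44 and 0.24 in the same fractions. Oas1a has near-identical copies and is uncertain for that reason. The genes that fell were Gbp2 (by 0.86) and Ifih1 (by 0.32) in CD138+ cells and Gbp3 (by 0.42) in GL7+ cells. Between the fractions with DMSO, 4 of the 21 were higher and 11 lower in CD138+ cells, with a median of -0.38. The shares of all tested genes were 21.8% and 36.9%. Of 9 MHC class II genes, 7 fell and 0 rose with GSK-J4 in the CD138+ fraction, against 8.61% of all tested genes that fell, and 8 fell and 0 rose in GL7+ cells, against 7.71%, with median log2 changes of -0.45 and -0.44. With DMSO, all 9 were lower in CD138+ than in GL7+ cells (median -1.37), against 36.9% of all tested genes, while 5 of the 9 class I genes were higher there, against 21.8%.

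The genes most like each member were found by the root mean square difference between centred log2 profiles over the 15 libraries, among 8679 candidates. H2-K1 was nearest to Zmynd11 (difference 0.082) and Serf2 (0.094), H2-D1 to Anxa6 (0.088) and Serf2 (0.09), and H2-T23 to Wbp1l and Tmem123 (both 0.094). Among the members, H2-K1 and H2-D1 differed by 0.06, less than either did from any candidate. The nearest to B2m were Tmem120b (0.151) and Phf3 (0.158), and those to Tapbp were Aup1 (0.071) and Tmem135 (0.073). Tap1 was nearest to Ppp2r5c (0.073), Tap2 to 9030624J02Rik (0.047), Erap1 to Ahcyl1 (0.054) and Nlrc5 to Senp1 (0.103). Profiles of nearly level genes differ little from one another, so the small values for Tap2 describe a lack of variation.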

How the data were processed

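Poly(A) RNA was sequenced in 15 libraries. The authors deposited RPKM per gene, per the file headers, with a gene length in bases. TopHat2 is the aligner and mm9 the genome build named in the submitters' processing notes, and the sources used here do not give the counting tool, annotation or strand setting. RPKM times length in kilobases summed to 1000000 per library, so values are relative to reads assigned to genes. Low values were whole multiples of 1 step per library (99.91 to 100% within 0.1 read), which gave each depth and read count.

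A gene was tested if 3 or more libraries had 1 RPKM or more. Tests were made on log2(RPKM + 1), a scale that understates changes of low genes, with limma 3.58.1 in R 4.3.3 (trended variance, a mean per group, all 15 libraries in 1 fit). Benjamini-Hochberg adjustment ran over all 10866 genes for each of 7 comparisons, at a threshold of 0.05. Fold differences are ratios of mean RPKM. The scripts were tested on simulated data. The labels tie numbered replicates to mice. Deviations from group means correlated at a median of 0.07 for the same mouse (26 pairs) and -0.03 for different mice (52 pairs). The labels do not say whether cultures of a mouse were separate, so p-values measure the spread between these libraries.

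The members and the 5 other gene lists were chosen with earlier results of these data known. Named list genes are those with the smallest adjusted p, up to 4 over the GSK-J4 comparisons and up to 4 between the fractions with DMSO. Irf2 and the interferon response genes that fell with GSK-J4 were named outside this rule. Alternatives were another pseudocount (0.1), no filter, mouse as a block, quantile normalization, median-ratio scaling, voom on recovered reads, a fit of the compared groups alone, and leaving out each library. Promoters came from a RefSeq table of GRCm38.p6, another build than the files', matched by gene identifier. Python 3.11.15 with matplotlib 3.10.9 made the figures.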

Additional observations from a re-analysis of the deposited data

How the results depend on the processing

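For GSK-J4 in CD138+ cells the count of members called was 2. It was 0 with mouse as a replicate block and 4 with median-ratio scaling, voom or the compared groups alone, and 1 to 3 when libraries were left out in turn. H2-K1 (adjusted p = 0.034 to 0.049) and Tap1 (0.021 to 0.027) were the added calls. In GL7+ cells the count of 1 became 2 with the block. The difference of effects had 0 calls, 1 with voom, 2 with the compared groups alone and 0 to 1 with libraries left out. The block changed no other call of a member. Over all genes, calls for GSK-J4 in CD138+ cells numbered 1437 (825 to 2182 with libraries left out, 927 with the block), in GL7+ cells 1469 (743 to 2281, voom 2621), and for the difference 105 (18 to 361, no filter 53, block 32, voom 433, compared groups alone 418). The highest of each range came without naïve replicate 2, and the lowest without CD138+ DMSO replicate 1 or 2, GL7+ GSK-J4 replicate 2 and GL7+ GSK-J4 replicate 3 in that order. The share of calls that were higher was 34.9% in CD138+ cells (46.7% with quantile normalization), 43% in GL7+ cells (58.7% with median-ratio scaling) and 37.2% between the fractions with DMSO (49.6% with median-ratio scaling). Scaling moved the median of all genes by at most 0.1 (log2). Single members moved more against naïve cells, as Tapbp in GL7+ DMSO cells from 0.13 to -0.24 with quantile normalization.

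The heavy chain to B2m ratio with all listed heavy chains was 2.35, 2.97, 2.68, 2.66 and 3.82 in CD138+ GSK-J4, CD138+ DMSO, GL7+ GSK-J4, GL7+ DMSO and naïve libraries. Directions of members with no call turned as follows, in log2 changes. For GSK-J4 in GL7+ cells Tap1 was 0.02 and Tapbp 0.02 with median-ratio scaling, and 0.03 and 0.01 with a library left out. For the difference of effects H2-D1 was 0.09 with quantile normalization, and over all fits with a library left out H2-D1 was -0.05 to 0.04, Nlrc5 -0.16 to 0.05, Erap1 -0.09 to 0 and Tap2 as low as -0.02. Between the fractions with DMSO, Tap2 was 0.01 and 0.05 and Erap1 0.04 and 0.09 with quantile and median-ratio scaling, and Nlrc5 was 0.02 with the second. With libraries left out Nlrc5 was -0.19 to 0.03 and Tap1 -0.01 to 0.07. With GSK-J4, Tap2 was 0.06 and 0.08 and Erap1 0.03 and 0.04 in the same scalings, and Tap2 was 0 and 0.02 with libraries left out. Against naïve cells quantile normalization turned Tap1 (-0.11 in GL7+ and -0.04 in CD138+ cells) and the called Tapbp (-0.24 in GL7+ cells), and called Tap2 (-0.34 in GL7+ and -0.33 in CD138+ cells) and B2m (-0.37 in CD138+ cells). With libraries left out, Tap2 was -0.07 to 0.01 in GL7+ cells and B2m -0.2 to 0.08 in CD138+ cells. Tapbp in GL7+ cells also lost its call with median-ratio scaling (0.10) and the compared groups alone (0.13), and so did H2-K1 in CD138+ cells (-0.08 and -0.15). Median-ratio scaling called Tap1 (0.20) there. The cause of these changes was not tested.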
